A study of Mus musculus with 7 samples.

Results

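The genes of the proteasome were followed in RAW264.7 cells, a mouse macrophage-like line from a leukaemia, with and without knockout of Gfi1. The members are all gene symbols that begin with Psm, a letter from a to g and a digit, without Psmb8 and Psmb9, and each gene is represented by its one-symbol probe set with the highest mean. They number 46 of the 9999 named genes measured. By textbook roles 16 encode the core particle, 9 the base and 8 the lid of the regulatory particle, 4 its alternative activators or an inhibitor, and 7 assembly factors. The last 2, Psmc3ip and Psme3ip1, share the symbol pattern only: the first acts in meiotic recombination and the second binds the product of Psme3. Psme2 has no test of its own, because its probe set also carries the symbol Psme2b.

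The wild-type group is unmodified RAW264.7 (3 arrays) and the other group is the same line labelled RAW GfI1-1, which the series title calls a Gfi1 knockout (4 arrays). Both were grown in DMEM with fetal bovine serum and antibiotics, were untreated, and are labelled T0. Whether the ending -1 names 1 clone, and how the gene was edited, the labels do not say. The replicates are called biological with no word on separate cultures. The p-values below therefore cover the spread among these 7 arrays, which could be technical. In such bulk RNA, fewer cells with a transcript and less of it per cell cannot be told apart.

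The proteasome is the protease that degrades proteins tagged with ubiquitin. Its core is a barrel of alpha rings, which form the gates, and beta rings, which hold the cutting sites. The regulatory particle has a base, whose ATPases unfold the substrate and thread it into the core, and a lid, which removes the ubiquitin chain. In macrophages, interferons and other inflammatory signals exchange the cutting subunits for those of the immunoproteasome, whose peptides feed MHC class I display.

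The wild-type arrays lay close together, and the knockout arrays fell into the pairs 1-2 and 3-4. Over the 46 members the SD of the log2 difference was 0.04 to 0.11 between wild-type arrays, 0.08 between knockout replicates 1 and 2, and 0.06 between replicates 3 and 4. Across the pairs it was 0.22 to 0.24. No label separates the pairs, so values are given by array. The count over all members is repeated with each pair alone, and the counts by role with the pairs as random blocks. In the fits with pair blocks, the 3 wild-type arrays together form 1 further block. The correlation within blocks was 0.794 in that fit. The only Gfi1 probe set, from a gene that encodes a transcriptional repressor, read 2.66, 2.85 and 2.98 on the log2 scale in wild type. It read 4.93, 5.02, 3.97 and 3.97 in knockout, a rise of 1.65 (SE 0.30, limma adjusted p = 0.00447). This low signal did not drop in the arrays labelled knockout. The position of the probe set with respect to the edit is unknown, and so the reading checks nothing. All directions rest on the labels. Of 11 macrophage markers all were measured, and their mean signal stood above that of at least 49.6% of genes in wild type. Of these 9 were lower in knockout by limma and 0 higher, beside 21.6% and 21.5% of all genes. The log2 of their summed linear signal, in which the brightest markers weigh most, was 15.2 in wild type and 14.5 to 14.6 in knockout. The part of this difference in the results below was not tested. The 3 markers listed for each of T cells, B cells, fibroblasts and epithelium were not analysed here, since they are not among the named genes.

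Proteasome genes were more often higher than lower in the knockout. By limma, with Benjamini-Hochberg adjustment over all 9999 genes, 20 of the 46 members rose and 3 fell, while 23 did not pass. Of all genes tested, 43.1% were called: 21.5% higher and 21.6% lower, against 43.5% and 6.5% of the members. Among the 5000 genes with a signal above the median, where most members lie, 23.2% were called higher and 22.9% lower. The difference was above 0 for 37 of 46 members and for 4933 of all 9999 genes. The members' median difference was 0.19 on the log2 scale, beside -0.01 for all genes. The changes were small, ranging from -0.46 for Psma8 to 0.98 for Psme3, and 0 members changed by 2-fold or more, as 405 genes did upwards and 411 downwards. Members whose 4 knockout arrays all lay above the 3 wild-type arrays numbered 23, and 6 lay below. Over all genes 54.5% did not overlap, with 26.5% above and 27.9% below.

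**Figure D1:**
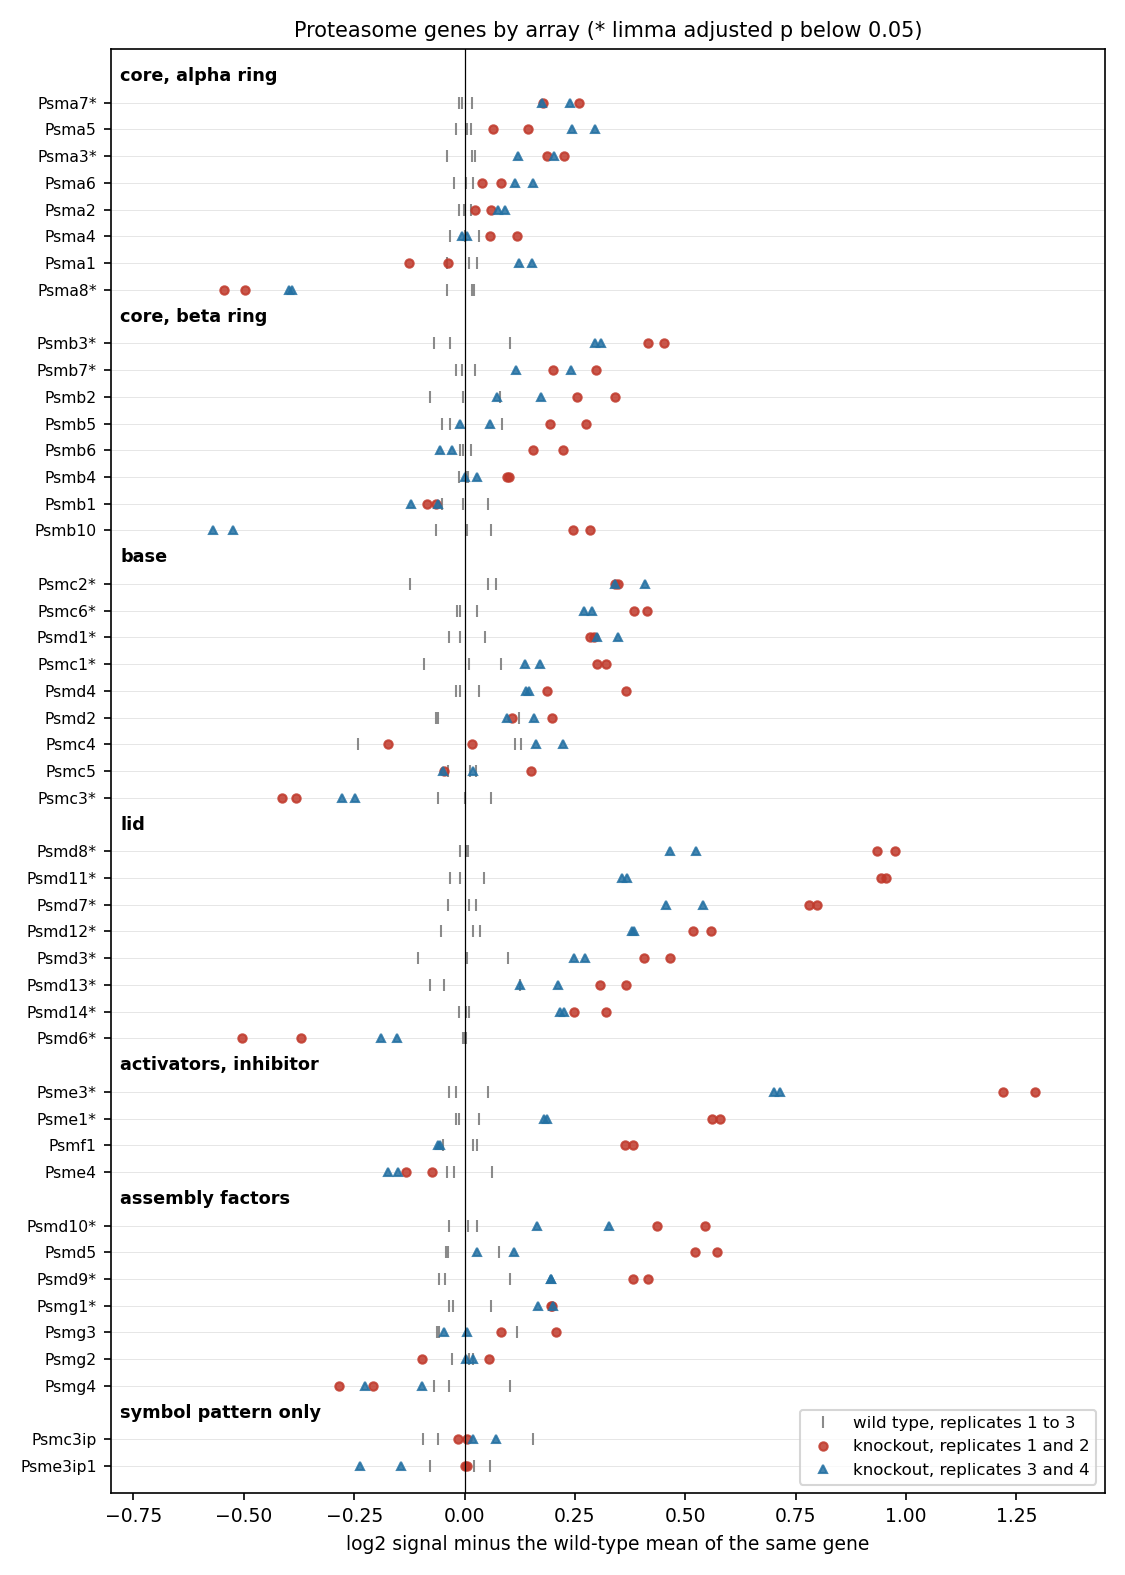
Log2 signal of each of the 46 genes on each array, minus the wild-type mean of that gene, in 7 groups by role. Grey ticks are the 3 wild-type arrays, red circles knockout replicates 1 and 2, blue triangles replicates 3 and 4, and asterisks mark limma adjusted p below 0.05. Of the 8 lid members 7 lie to the right of 0 on all knockout arrays, and Psmb10 lies on opposite sides of 0 in the pairs.

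The rise was seen in each knockout array, and its test depended on how the arrays were treated. The members' median was 0.22, 0.20, 0.13 and 0.14 above the wild-type mean in knockout replicates 1 to 4, beside -0.02 to 0.03 in the wild-type arrays. With replicates 1 and 2 alone as the knockout group, 27 members were called higher and 4 lower, beside 34.1% and 34.1% of all genes. With replicates 3 and 4 alone it was 20 and 6, beside 27.7% and 29.3%. These fits share the wild-type arrays. With the pairs as random blocks, limma called 1 member higher, Psme3, and 0 lower, beside 4.48% and 4.56% of all genes, and 6 and 1 of 46 at an unadjusted p under 0.05. Over all genes 12.4% and 13.2% had such a p, so the members' share of rises at that cut was near the background. Of the 23 called members 11 passed in each fit that left out 1 array: Psma8, Psmb3, Psmc2, Psmc3, Psmc6, Psmd1, Psmd7, Psmd8, Psmd12, Psmd14 and Psme3. The count of rises was 13, 9 and 10 without wild-type replicates 1, 2 and 3, and 13 without knockout replicate 1.

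**Figure D2:**
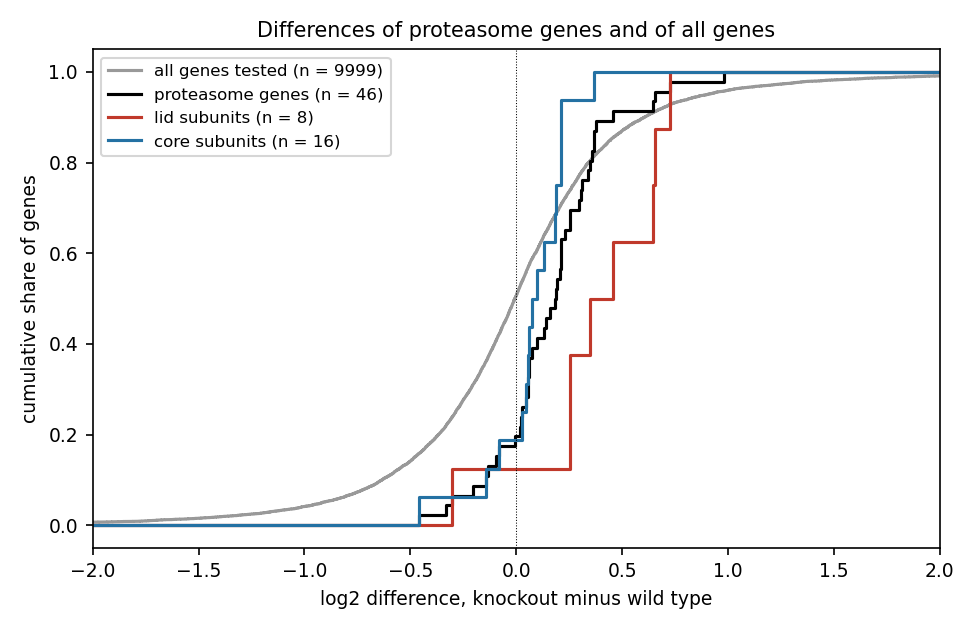
Cumulative share of genes by log2 difference, knockout minus wild type, for all 9999 genes (grey), the 46 proteasome genes (black), the 16 core genes (blue) and the 8 lid genes (red). The black curve crosses its middle near 0.19 and the red one near 0.40, while the grey curve does so near 0. Differences beyond 2 on either side are not shown.

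The lid showed the largest differences of the particle's parts. Of its 8 genes among the members 7 rose and 1 fell (87.5% and 12.5%, beside 21.5% and 21.6% of all genes), with a median of 0.40. Sem1, a measured lid gene outside the symbol rule, was not called (difference -0.10, limma adjusted p = 0.258) and is not in these counts. With the pairs as random blocks limma called 0 in either direction (lowest adjusted p = 0.0513), beside 4.48% higher and 4.56% lower of all genes. At an unadjusted p under 0.05 it gave 4 higher and 0 lower, beside 12.4% and 13.2% of all genes. The medians by knockout array were 0.49, 0.48, 0.32 and 0.31. Psmd8 encodes a lid subunit of the PCI family. Its log2 signal was 10.45, 10.45 and 10.44 in wild type, and 11.38, 11.42, 10.91 and 10.97 in knockout replicates 1 to 4. Every knockout array lay above every wild-type array, and replicates 1 and 2 lay highest. The rise of 0.72 (SE 0.14, limma adjusted p = 0.00613) is 1.65-fold. Psmd11, whose product is a scaffold subunit that helps to hold lid, base and core together, read 10.46, 10.40 and 10.38 in wild type. In knockout it read 11.36, 11.37, 10.77 and 10.78, again without overlap and with the same pair on top. It rose by 0.66 (SE 0.18, adjusted p = 0.0212), with adjusted p from 0.0128 to 0.0711 when single arrays were left out: it was no longer called without wild-type replicate 1, 2 or 3 (0.0596, 0.0678 and 0.0711).

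Psmd7, chosen for its values after they were seen, encodes the partner of the lid's deubiquitinase. It went from 7.27, 7.28 and 7.22 to 8.05, 8.03, 7.71 and 7.79, a rise of 0.64 (SE 0.10, adjusted p = 0.00225). With the pairs as blocks the adjusted p was 0.0513 for Psmd7 and 0.0536 for Psmd8. Psmd12 rose by 0.46 (SE 0.07) and Psmd3 by 0.35 (SE 0.08), and both encode scaffold subunits of the lid. Without wild-type replicate 2 Psmd3 was not called (adjusted p = 0.0632). Psmd14 encodes the deubiquitinase that clips the ubiquitin chain from the substrate. It read 11.20, 11.19 and 11.17 in wild type and 11.44, 11.51, 11.40 and 11.41 in knockout, a tight rise of 0.25 (SE 0.06, adjusted p = 0.0104). Psmd13 rose by the same 0.25 (SE 0.09), but its groups overlapped. It was not called without wild-type replicate 2 or 3 or knockout replicate 1, 2 or 4 (adjusted p = 0.067 to 0.166).

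Psmd6 was the exception among the lid members. It encodes a PCI-family lid subunit and stood at 10.33, 10.34 and 10.34 in wild type. In knockout it stood at 9.84, 9.97, 10.19 and 10.15, below wild type on each array and lowest in replicates 1 and 2. It fell by 0.30 (SE 0.10, adjusted p = 0.0376), and the call was lost without any 1 wild-type array or knockout replicate 1 or 2 (adjusted p = 0.0579 to 0.108). Its second probe set differed by -0.05 (SE 0.18, adjusted p = 0.853 over all probe sets).

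The promoters of the genes with the largest rises for which RefSeq gave an entry are printed here, to show what the sequence before these start sites holds. Each runs 5′ to 3′ on the strand of its gene in GRCm38.p6, from 250 bases before the start to 50 after it. They lie at chr7:29180624-29180923 (minus strand) for Psmd8, chr11:80428365-80428664 (plus) for Psmd11, chr11:107479278-107479577 (plus) for Psmd12 and chr11:101315963-101316262 (plus) for Psme3, the activator gene described further on. Capitals mark matches, on either strand, to CCGGAAG, the core of an ETS factor motif.
Psmd8: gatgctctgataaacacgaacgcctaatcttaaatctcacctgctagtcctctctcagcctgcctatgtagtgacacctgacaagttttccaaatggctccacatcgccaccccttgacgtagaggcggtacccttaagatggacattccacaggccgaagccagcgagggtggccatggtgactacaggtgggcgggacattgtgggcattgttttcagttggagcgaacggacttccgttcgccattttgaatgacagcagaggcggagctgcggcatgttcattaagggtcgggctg
Psmd11: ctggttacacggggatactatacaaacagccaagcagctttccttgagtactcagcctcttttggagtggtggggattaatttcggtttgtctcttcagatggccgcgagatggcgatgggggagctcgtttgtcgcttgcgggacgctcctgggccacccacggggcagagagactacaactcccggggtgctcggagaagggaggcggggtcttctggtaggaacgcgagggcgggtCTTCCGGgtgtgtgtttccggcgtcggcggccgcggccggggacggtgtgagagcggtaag
Psmd12: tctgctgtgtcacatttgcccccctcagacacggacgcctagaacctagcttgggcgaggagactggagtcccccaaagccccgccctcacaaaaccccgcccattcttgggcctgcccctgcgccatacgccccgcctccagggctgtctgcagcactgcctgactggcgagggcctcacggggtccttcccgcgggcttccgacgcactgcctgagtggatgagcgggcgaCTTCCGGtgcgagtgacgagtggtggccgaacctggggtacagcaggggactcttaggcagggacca
Psme3: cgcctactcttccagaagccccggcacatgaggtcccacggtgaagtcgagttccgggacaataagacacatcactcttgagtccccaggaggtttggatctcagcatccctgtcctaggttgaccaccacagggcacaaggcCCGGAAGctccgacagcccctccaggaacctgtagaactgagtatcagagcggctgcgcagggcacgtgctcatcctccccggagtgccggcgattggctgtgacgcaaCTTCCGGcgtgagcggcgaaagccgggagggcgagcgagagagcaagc
This motif occurred in 15 of 38 promoters of 36 proteasome genes (39.5%) and in 8.9% of all 32851 promoters in the table. It was in 9 of the 18 promoters of genes that rose and in 6 of the 20 others. Of the 4 shown, Psme3 had 2 matches, Psmd11 and Psmd12 had 1 each, and Psmd8 had 0.

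The antioxidant response element, which binds NFE2L1 and NFE2L2 with small MAF proteins, was searched as TGACNNNGC or TGAGNNNGC on both strands. It was in 17 of the 38 promoters (44.7%) and in 27.8% of all promoters. It stood in 8 of the 18 promoters of genes that rose and 9 of the 20 others. Psmd12 had 2 matches, GCTGTGTCA and TGAGCGGGC, and the other 3 promoters printed had 0. CCAAT was in 12 of 38 (31.6%) and in 37.4% of all. The letters AATCNNNGC, a core of the GFI1 motif, were in 1 of 38 (2.6%), the promoter of Psma2, and in 10.3% of all. Matches to different motifs overlapped in 1 of the 38 promoters. All shares describe letters in a window, and no binding was measured.

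In the base, 4 of 9 genes rose and 1 fell (44.4% and 11.1%, beside 21.5% and 21.6% of all genes), with a median of 0.21. That median was 0.13 with probe sets averaged within each gene and 0.05 with the probe set of second highest mean. Limma with pair blocks called 0, beside 9.04% of all genes. At an unadjusted p under 0.05 it gave 1 higher and 0 lower, beside 12.4% and 13.2% of all genes. Psmc2, Psmc6 and Psmc1 encode ATPases of the ring, and rose by 0.36 (SE 0.07), 0.34 (SE 0.06) and 0.23 (SE 0.08). For Psmc2 the wild-type values were 10.51, 10.68 and 10.70 and the knockout values 10.98, 10.97, 11.04 and 10.97 (adjusted p = 0.00558). The knockout arrays stood together above the wild-type arrays, with no split into pairs. Psmc6 read 10.34, 10.30 and 10.31, then 10.70, 10.73, 10.59 and 10.61 (adjusted p = 0.0048). This rise rests on its brighter probe set, and the other fell (-1.28, SE 0.41, limma adjusted p = 0.0412 over all probe sets). Psmd1, which encodes the large scaffold of the base, was chosen after its values were seen. It rose from 8.88, 8.82 and 8.80 to 9.12, 9.12, 9.13 and 9.18, by 0.31 (SE 0.06, adjusted p = 0.00446), also with no split between pairs.

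Psmc3, another ATPase of the same ring, went the other way. Its signal was 9.93, 9.87 and 9.81 in wild type and 9.49, 9.46, 9.59 and 9.62 in knockout, all below wild type. It fell by 0.33 (SE 0.07, adjusted p = 0.008). The ATPases Psmc4 and Psmc5 differed by 0.06 (SE 0.13) and 0.02 (SE 0.07), within their spread. Psmd4 encodes a receptor for ubiquitin chains. It read 10.98, 10.93 and 10.93 in wild type and 11.13, 11.31, 11.08 and 11.09 in knockout. The groups did not overlap, but the difference of 0.21 (SE 0.07) missed the threshold (adjusted p = 0.0563). Psmd2, the scaffold that receives shuttle proteins, differed by 0.14 (SE 0.07, adjusted p = 0.149).

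In the core particle, 4 of 16 genes rose and 1 fell (25.0% and 6.2%, beside 21.5% and 21.6% of all genes). The median was 0.09, with 0.15 for knockout pair 1-2 alone and 0.10 for pair 3-4 alone. Limma with pair blocks called 0, beside 9.04% of all genes. At an unadjusted p under 0.05 it gave 0 higher and 1 lower, beside 12.4% and 13.2% of all genes. Without Psma8 and Psmb10, which are not part of the constitutive core, 4 of 14 rose and 0 fell by limma (28.6% and 0.0%). The median was then 0.11. At an unadjusted p under 0.05 it was 6 and 0, beside 2602 and 2641 of all 9999 genes. In the alpha ring Psma7 read 10.33, 10.34 and 10.36, then 10.60, 10.52, 10.58 and 10.52, and rose by 0.21 (SE 0.06, adjusted p = 0.0194). Psma3 rose by 0.18 (SE 0.06, adjusted p = 0.0363). Psma6 stood at 11.80, 11.82 and 11.84 and at 11.90, 11.86, 11.97 and 11.93. That difference of 0.10 (SE 0.06) was without overlap but not past the threshold (adjusted p = 0.202), while its next probe set was higher by 0.20 (SE 0.06, adjusted p = 0.0339 over all probe sets). The second probe set of Psma5 was likewise higher by 0.20 (SE 0.06, adjusted p = 0.0355). The chosen probe sets of Psma5, Psma2 and Psma4 differed by 0.19, 0.06 and 0.04.

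Psma8 encodes an alpha subunit used by the testis proteasome, and was the core gene with the largest fall. It read 6.60, 6.53 and 6.59 in wild type and 6.08, 6.03, 6.18 and 6.18 in knockout. It fell by 0.46 (SE 0.06, adjusted p = 0.00159). Its signal exceeded that of 37.1% of genes in wild type, and with no measure of background, true signal and cross-hybridisation are not separable. Psma1 split by pair: 10.59 and 10.68 in the first knockout pair, 10.84 and 10.87 in the second, against 10.68, 10.75 and 10.73 in wild type. The mean of each pair lay outside the wild-type range, on opposite sides, and the overall difference was 0.03 (SE 0.08, adjusted p = 0.808).

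In the beta ring 2 of 8 genes rose and 0 fell by limma (25.0% and 0.0%, beside 21.5% and 21.6% of all genes). The share of rises was thus near the background. At an unadjusted p under 0.05 it was 3 and 0, beside 2602 and 2641 of all 9999 genes. Psmb3, a structural subunit, had wild-type values of 10.63, 10.49 and 10.45 and knockout values of 10.98, 10.94, 10.82 and 10.83. It rose by 0.37 (SE 0.07, adjusted p = 0.00672), and its second probe set rose by 0.23 (SE 0.07). Psmb7, which encodes the trypsin-like cutting subunit, rose by 0.21 (SE 0.06, adjusted p = 0.0318), from 9.65, 9.70 and 9.67 to 9.87, 9.97, 9.91 and 9.79. Of the fits that left out 1 array, Psma3, Psmb7 and the ATPase gene Psmc1 passed in the one without knockout replicate 4 (adjusted p = 0.0402, 0.0247 and 0.0405) and reached 0.0995, 0.1 and 0.135 in the others. Psma7 was not called without wild-type replicate 1, 2 or 3 (0.0542, 0.0781 and 0.0607).

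The other cutting subunits are Psmb5, chymotrypsin-like, and Psmb6, caspase-like. Psmb5 differed by 0.13 (SE 0.09, adjusted p = 0.261), from 10.22, 10.08 and 10.10 to 10.41, 10.33, 10.12 and 10.19. Psmb6 read 10.67, 10.70 and 10.68 in wild type, 10.91 and 10.84 in knockout pair 1-2, and 10.65 and 10.63 in pair 3-4. The first pair lay above wild type and the second just below it. Psmb2 and Psmb4 differed by 0.21 (SE 0.08) and 0.06 (SE 0.06), and Psmb1 by -0.08 (SE 0.06); none of these 3 passed.

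Psmb10 was the core gene that differed most between the knockout pairs. It encodes the immunoproteasome subunit that replaces that of Psmb7. It stood at 9.24, 9.18 and 9.12 in wild type. Knockout pair 1-2 was higher, at 9.46 and 9.43, and pair 3-4 was lower, at 8.61 and 8.65. The pair means were 0.81 apart, and the overall difference was -0.14 (SE 0.24, adjusted p = 0.659). Against wild type it was 0.27 with the first pair alone and -0.55 with the second alone. No p-value is given for these, since the gene was named for its opposed pair means. Psmb8 and Psmb9, the immunoproteasome partners of Psmb5 and Psmb6, split the same way. Psmb8 read 10.00, 9.82 and 9.82 in wild type and 10.35, 10.35, 9.47 and 9.47 in knockout. Psmb9 read 8.95, 8.90 and 8.84, then 9.12, 9.05, 8.16 and 8.21. Pair means on opposite sides of the wild-type range were found for 4 of 46 members (Psma1, Psmb6, Psmb10 and Psmf1) and for 12.5% of all genes. The difference between pairs was not tested, since the pairs were seen in the data and have no label.

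**Figure D3:**
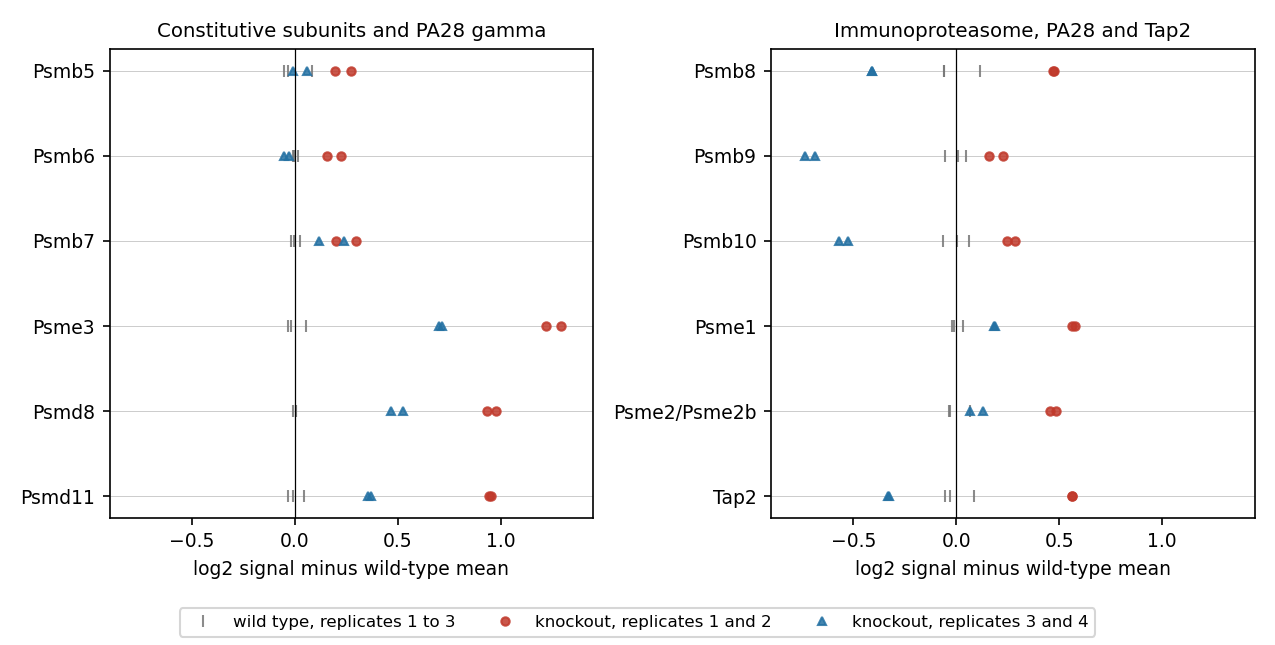
Log2 signal minus the wild-type mean of the same gene on each array, for constitutive genes (left) and immunoproteasome genes, PA28 genes and Tap2 (right). Ticks are the 3 wild-type arrays, circles knockout replicates 1 and 2, triangles replicates 3 and 4. Psmb8, Psmb9, Psmb10 and Tap2 lie right of 0 in the first pair and left of it in the second, whereas Psme3, Psmd8 and Psmd11 lie right of 0 in both.

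Among the activators Psme3 had the largest rise of any member. Psme3 encodes PA28 gamma, a nuclear ring that opens the core without ATP or ubiquitin. Its log2 signal was 8.14, 8.07 and 8.06 in wild type and 9.31, 9.38, 8.81 and 8.79 in knockout, with no overlap. It rose by 0.98 (SE 0.17, adjusted p = 0.00332), or 1.97-fold, and was the member that passed with the pairs as blocks (adjusted p = 0.0299). Its second, dimmer probe set differed by -0.06 (SE 0.10, adjusted p = 0.666), so the rise rests on 1 probe set.

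Psme1 encodes PA28 alpha, the interferon-inducible activator subunit. It read 10.07, 10.02 and 10.02 in wild type and 10.61, 10.60, 10.22 and 10.22 in knockout. It rose by 0.38 (SE 0.12, adjusted p = 0.0413), a call lost without any 1 wild-type array or knockout replicate 1 or 2 (adjusted p = 0.0817 to 0.118). The probe set shared by Psme2, which encodes its partner PA28 beta, and Psme2b was not tested. It read 10.53, 10.43 and 10.43, then 10.95, 10.92, 10.53 and 10.59. Pair 1-2 lay highest. Knockout replicate 4 also lay above every wild-type array, and replicate 3 equalled the highest of them. Psme4 encodes the nuclear activator PA200. Its difference was -0.13 (SE 0.06, adjusted p = 0.111), and its 3 probe sets lay between -0.17 and -0.11.

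Psmf1 encodes PI31, first described as a proteasome inhibitor, and its probe sets disagreed. The one with the highest mean read 6.99, 7.00 and 6.93 in wild type, 7.34 and 7.36 in knockout pair 1-2, and 6.91 and 6.92 in pair 3-4. Its difference was 0.16 (SE 0.13, adjusted p = 0.371). The others differed by -0.78 (SE 0.14, adjusted p = 0.00446) and -0.76 (SE 0.10, adjusted p = 0.00158) in the fit over all probe sets, below wild type on all 4 knockout arrays. No direction is given for the gene. Psmc6 also had opposed probe sets: the brighter rose as given, and the other fell by 1.28 (SE 0.41, adjusted p = 0.0412). That one went from 6.34, 6.62 and 6.56 to 4.62, 4.46, 6.09 and 5.72. Psmc4 had 0.06 on its brighter probe set and -0.29 (SE 0.10, adjusted p = 0.0499) on the other. For Psmd11 the 5 probe sets lay between 0.22 and 0.86, and 3 of them rose. In all, 19 members had more than 1 probe set. The probe sets not chosen for the genes that rose numbered 12, of which 4 rose and 1 fell.

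**Figure D4:**
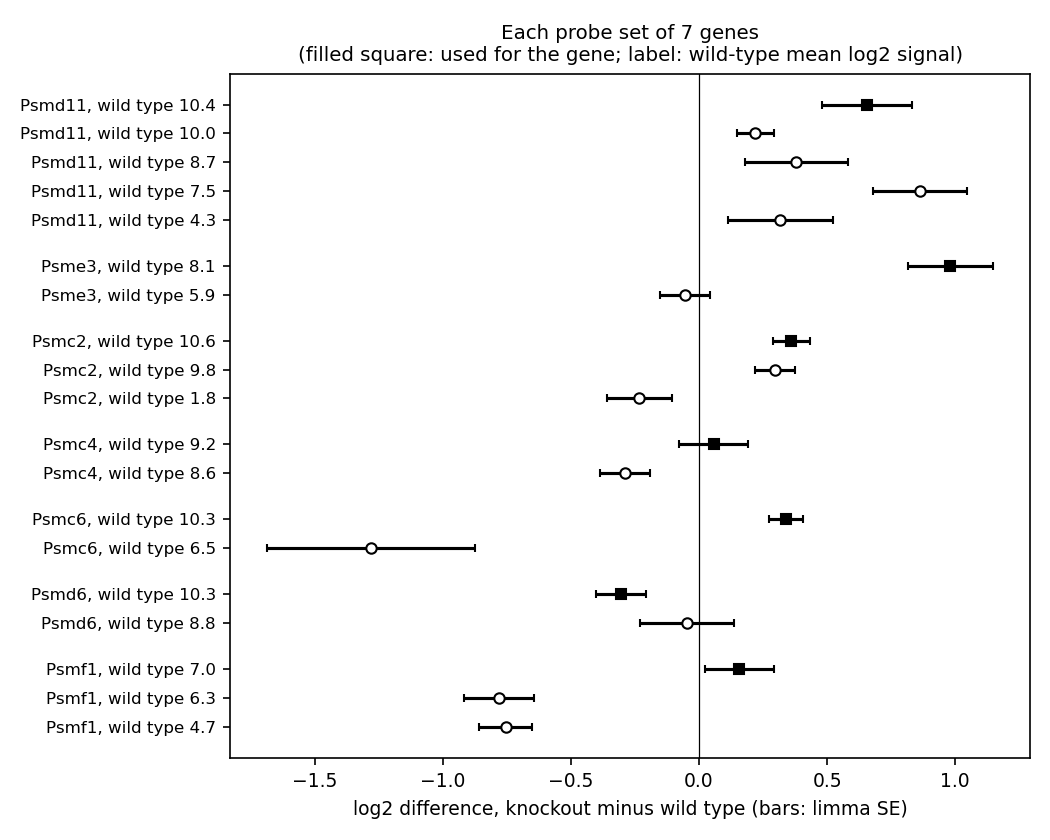
Log2 difference, knockout minus wild type, of every probe set of 7 genes, with limma SE as bars from the fit over all one-symbol probe sets. Filled squares are the probe sets used for the gene, and the labels give the wild-type mean log2 signal of each. The 5 probe sets of Psmd11 lie right of 0, while those of Psmf1 and Psmc6 lie on both sides.

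Of the assembly factors 3 of 7 rose and 0 fell (42.9% rose, beside 21.5% of all genes). At an unadjusted p under 0.05 limma gave 3 higher and 1 lower, beside 2602 and 2641 of all 9999 genes. The median of the assembly factors was 0.19, and 0.07 without knockout replicates 1 and 2. Limma with pair blocks called 0, beside 9.04% of all genes. At an unadjusted p under 0.05 it also gave 0, beside 12.4% higher and 13.2% lower of all genes. These genes encode chaperones that help to build the particle and leave it again. Psmd10 (gankyrin) and Psmd9 encode chaperones of the base. Psmd10 read 8.80, 8.82 and 8.75 in wild type and 9.33, 9.23, 9.12 and 8.95 in knockout, and rose by 0.37 (SE 0.10, adjusted p = 0.019). Psmd9 rose by 0.30 (SE 0.09, adjusted p = 0.0272), from 7.52, 7.37 and 7.36 to 7.80, 7.83, 7.61 and 7.61. Psmg1, a chaperone of the alpha ring, rose by 0.19 (SE 0.06, adjusted p = 0.0294), from 9.27, 9.18 and 9.19 to 9.41, 9.41, 9.38 and 9.41. Psmd10 was not called without any 1 of the wild-type arrays (adjusted p = 0.0561 to 0.0709), and Psmd9 without wild-type replicate 2 or 3 or knockout replicate 1 or 2 (0.0595 to 0.101). Psmg1 was lost without wild-type replicate 2 or 3 or knockout replicate 1, 2 or 4 (0.0593 to 0.123).

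Psmd5, a base chaperone, was higher in knockout pair 1-2 (8.47 and 8.52) than in pair 3-4 (7.98 and 8.06), which lay within or just above the wild-type range of 7.91 to 8.03. Its difference was 0.31 (SE 0.15, adjusted p = 0.132). The core chaperones Psmg2, Psmg3 and Psmg4 differed by -0.00, 0.06 and -0.20, and 0 of these 3 passed with limma, against 1 (Psmg4) at an unadjusted p under 0.05. Psmc3ip and Psme3ip1, outside the particle, differed by 0.02 (SE 0.08) and -0.09 (SE 0.08).

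Genes listed as partners of the proteasome moved in both directions. The list includes shuttles, deubiquitinases, ligases and unfolding factors, and also the lid gene Sem1 and the core maturation gene Pomp. Of 17 measured partners 5 rose and 1 fell (29.4% and 5.9%, beside 21.5% and 21.6% of all genes), with a median of 0.15. Limma with pair blocks called 0, beside 9.04% of all genes. At an unadjusted p under 0.05 it gave 4 higher and 1 lower, beside 12.4% and 13.2% of all genes. Ufd1, a cofactor of the VCP segregase, rose by 0.72 (SE 0.11, adjusted p = 0.0019), and Zfand5, a proteasome-binding zinc finger protein, by 0.60 (SE 0.17, adjusted p = 0.0281). Both rest on their brightest probe set: the next differed by -0.10 for Ufd1 and -1.06 (adjusted p = 0.00248) for Zfand5. Zfand5 lost its call without any 1 wild-type array or knockout replicate 1 or 2 (adjusted p = 0.0517 to 0.0847). Ubqln2, a ubiquilin that shuttles ubiquitinated proteins to the proteasome, read 8.88, 8.99 and 9.02, then 7.69, 7.78, 8.37 and 8.29. It fell by 0.93 (SE 0.18, adjusted p = 0.00592). Sem1, the smallest lid subunit, whose symbol lies outside the rule, differed by -0.10 (SE 0.07, adjusted p = 0.258). Pomp, which matures the core, was chosen after its values were seen and differed by 0.07 (SE 0.05).

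Regulators of proteasome genes held larger changes than the subunits. Of 13 measured, 4 rose and 4 fell (30.8% each way, beside 21.5% and 21.6% of all genes), with a median of -0.04. With the pairs as blocks 1 was higher and 2 were lower, beside 4.48% and 4.56% of all genes. NFE2L1 is the transcription factor that raises proteasome genes when proteasome activity is short, and NGLY1 removes its sugars. Ngly1 read 6.87, 6.67 and 6.78 in wild type and 8.01, 8.03, 8.18 and 8.25 in knockout, a rise of 1.34 (SE 0.09, adjusted p = 6.44e-05). Nfe2l1, chosen after its values were seen, rose from 9.22, 9.03 and 9.04 to 9.90, 9.96, 9.68 and 9.70, by 0.72 (SE 0.10, adjusted p = 0.00124). The small MAF genes Maff and Mafg, whose products pair with NFE2L1 and NFE2L2, rose by 1.90 (SE 0.35) and 0.78 (SE 0.08). Maff was dim in wild type, at 4.95, 4.46 and 5.12, above 13.4% of genes. It read 7.34, 7.27, 6.23 and 6.13 in knockout. Mafk, also a small MAF gene and chosen after its values were seen, differed by 0.65 (SE 0.33, limma adjusted p = 0.146) and was not called.

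Nfe2l2, the related factor of the oxidative stress response, went the other way. It stood at 10.32, 10.36 and 10.38 in wild type and 9.71, 9.65, 9.74 and 9.82 in knockout, and fell by 0.63 (SE 0.06, adjusted p = 0.000396). Its inhibitor Keap1 fell by 0.40 (SE 0.09), Bach1, a repressor at the same DNA element, by 0.49 (SE 0.05), and Irf1, an inducer of immunoproteasome genes, by 0.72 (SE 0.06). These 3 were chosen after their values were seen. With the pairs as blocks, Ngly1, Nfe2l2 and Irf1 still passed (adjusted p = 0.00601, 0.0408 and 0.0373), while Mafg, Nfe2l1, Maff, Bach1 and Keap1 did not (0.0506, 0.0631, 0.071, 0.0713 and 0.157).

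**Figure D5:**
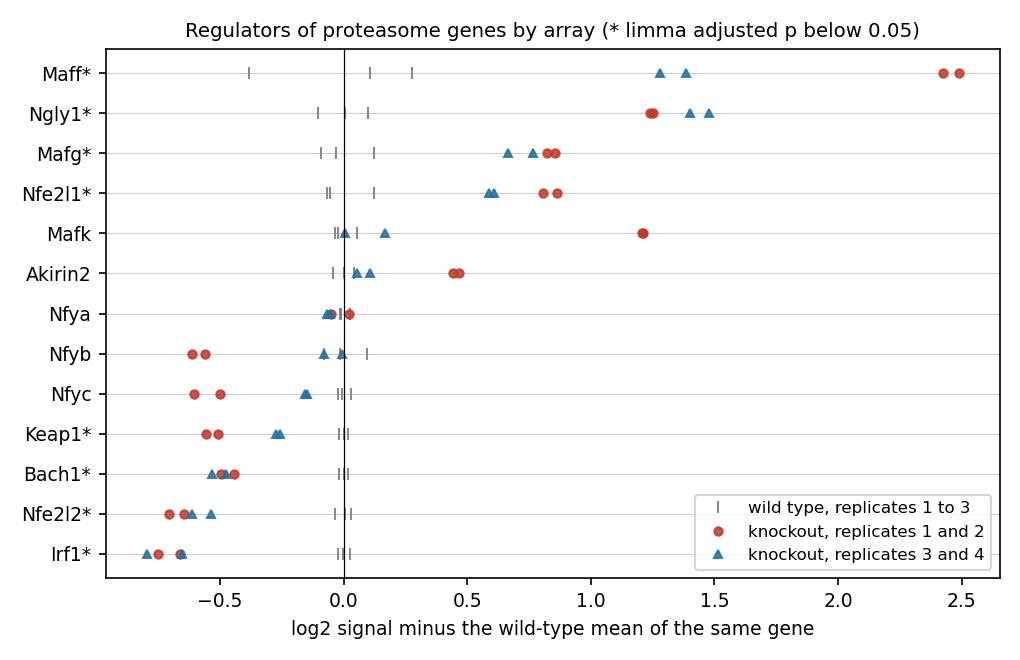
Log2 signal of 13 regulators of proteasome genes on each array, minus the wild-type mean of the same gene, with the same symbols as in the plot of all members. Asterisks mark limma adjusted p below 0.05. Ngly1, Mafg and Nfe2l1 lie right of 0 and Nfe2l2, Irf1 and Bach1 left of it on all 4 knockout arrays, and Mafk is right of 1 in replicates 1 and 2 and under 0.2 in the others.

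Of 11 measured genes of peptide display downstream of the proteasome, 1 rose and 2 fell (9.1% and 18.2%, beside 21.5% and 21.6% of all genes), with a median of -0.09. Limma with pair blocks called 0, beside 9.04% of all genes. At an unadjusted p under 0.05 it gave 1 higher and 2 lower, beside 12.4% and 13.2% of all genes. The class I transactivator gene Nlrc5 rose by 0.76 (SE 0.21, adjusted p = 0.0235). The class I genes H2-K1 and H2-D1 fell by 0.45 (SE 0.11) and 0.44 (SE 0.11), but such near-identical genes can share probe signal. Nlrc5 and H2-D1 were not called without any 1 wild-type array (adjusted p = 0.0597 to 0.0802 and 0.0505 to 0.0647), nor H2-K1 without wild-type replicate 1 or 2 (0.0601 and 0.0511). B2m, the class I light chain, differed by -0.17 (SE 0.06, adjusted p = 0.0684). The peptide transporter gene Tap2, chosen after its values were seen, split as the immunoproteasome genes did. It read 7.48 and 7.47 in knockout pair 1-2, 6.59 and 6.58 in pair 3-4, and 6.86 to 7.00 in wild type. Tap1, the other transporter gene, did not: it differed from wild type by 1.25 in pair 1-2 and 0.003 in pair 3-4. Pair means on opposite sides of the wild-type range were found for 4 of the 11 genes, beside 12.5% of all genes. The list's medians were 0.14, 0.16, -0.20 and -0.24 in knockout replicates 1 to 4. Of the ubiquitin genes listed, Uba6, a ubiquitin-activating enzyme gene, was measured and differed by -0.07 (SE 0.13, adjusted p = 0.71).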

How the data were processed

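The authors deposited 1 column of probe set intensity per array, per the file headers, for 19431 probe sets. RMA (background correction, quantile normalization and probe summary) is the method the submitters' processing notes name, without a version. The values were linear, so log2 was taken. Such normalization hides a global change of RNA content. Gene names came from the platform's annotation: 17335 had 1 symbol, 532 several and 1564 none, and 0 of the symbols needed updating through RefSeq.

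Knockout and wild type were compared with limma 3.58.1 (R 4.3.3), with moderated two-sided tests of 2 groups and Benjamini-Hochberg adjustment over 9999 genes at 0.05. The code was tested on simulated data. Genes named in full are, per group, the 2 largest rises and falls past the threshold and the member with the highest mean; members with opposed probe sets or pairs; Gfi1, Psmb8 and Psmb9; and, per other list, the 3 largest changes past the threshold and the highest mean. Members, lists and rules were chosen with earlier results of these data known. Members named beyond this rule were picked after their values were seen. Arrays have no read depth: their number sets the precision. Motifs were searched in RefSeq promoters of GRCm38.p6, which held 38 of the 46 members' symbols. Alternatives covered scaling, a filter on low signal, the variance model, the probe set, blocks, a test against a fold of 1.2 and arrays left out.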

Additional observations from a re-analysis of the deposited data

Results flagged for a closer look

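For Psmc2 and Psmg1, 1 of the 4 knockout arrays lay far from the other 3 for the spread of the group: the gap to the nearest array was 0.904 and 0.88 of the whole range, above Dixon's critical value for 4 samples. Psmc2 read 11.04 in knockout replicate 3 and 10.97 to 10.98 in the others, and Psmg1 read 9.38 in replicate 3 and 9.41 in the others. The gaps are small in size because the other arrays lay very close together. Of 62 genes looked at in this way 2 were marked. Chance marks about 1 in 20 where the 4 values are independent, but these knockout arrays fell into pairs, so that rate may not hold here.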

How the results depend on the processing

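Signs of called members held under quantile normalization, centring on array medians, an intensity trend with a robust prior and leaving out genes under the 40th percentile, which removed Psma8 and so tested 22 of 23. In these fits 20 to 22 members rose. The median of all genes moved by under 0.1 in each alternative. With replicate number as a block 13 members rose and 2 fell. Arrays with the same number had correlations of deviations from their group mean of 0.124, -0.09 and 0.106. The knockout deviations also carry the split between the knockout pairs. These values therefore cannot tell whether the numbers pair the arrays, and the labels do not say so. With the pairs of knockout arrays as random blocks 448 genes were higher and 456 lower in all, and 1 and 0 members. Against a fold of 1.2 it was 853 and 893 genes, and 3 and 0 members (5 and 1 at an unadjusted p under 0.05 by limma's treat). Without knockout replicates 3 and 4, 3406 genes were higher and 3408 lower, Psmb10 stood at 0.27 and Psmb9 at 0.19. Without replicates 1 and 2, 6 members were lower, the members' median was 0.14 and Psmb8 stood at -0.41. Leaving out single arrays gave 1379 to 2182 higher and 1500 to 2289 lower genes, 9 to 19 members higher and 2 to 4 lower, and medians of 0.17 to 0.20. With probe sets averaged within each gene the members' median was 0.14, and Psmc6 (-0.47), Psmf1 (-0.46) and Zfand5 (-0.018) turned sign. With the probe set of second highest mean, 16 of the 23 called members kept their call and direction. Psmc6 (-1.28), Psmf1 (-0.78), Psme3 (-0.056), Ufd1 (-0.10), Zfand5 (-1.06) and the median of the activators and inhibitor (-0.083) then turned sign, which comes from the other probe sets. The cause of the other changes was not tested. Signal over background was not available in the values used, which limits Psma8 and the dim probe sets.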
